A study of Mus musculus with 14 samples.

Results

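The nuclear genes for the enzymes of oxidative phosphorylation were followed through 2 stages of mouse sperm development, with and without the histone methyltransferase Setd2. They were chosen by symbol alone: every gene whose name begins with Nduf, Uqcr, Cox4 to Cox8 or Atp5, together with Sdha, Sdhb, Sdhc and Sdhd. The naming rule uses no measured value, though earlier results of these data were known when it was chosen. It took 93 of the 20626 genes in the tables: 36 of complex I (NADH dehydrogenase), 4 of complex II (succinate dehydrogenase), 8 of complex III (the cytochrome bc1 complex), 19 of complex IV (cytochrome c oxidase), 15 of the ATP synthase, and 11 assembly or accessory factors that carry such names (Ndufaf1 to Ndufaf8, Atp5s, Atp5sl and Cox7a2l). Ndufa4 and its paralogue Ndufa4l2 were placed with complex IV, where the Ndufa4 protein is known to sit. Subunits encoded in mitochondrial DNA were not analysed here.

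As background, complexes I and II pass electrons from NADH and succinate to ubiquinone, complex III passes them on to cytochrome c, and complex IV passes them to oxygen. Complexes I, III and IV pump protons as they do so, and the ATP synthase uses the resulting gradient to make ATP. Spermatocytes rely on lactate from Sertoli cells and on respiration, and male germ cells replace several ubiquitous subunits by testis isoforms, among them Cox6b2, Cox7b2, Cox8c and the testis cytochrome c Cyct.

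Polyadenylated RNA was sequenced from testicular cells of adult C57BL/6J mice that had been sorted by Hoechst and propidium iodide staining. The sorted populations were pachytene and diplotene spermatocytes (PD), in the prophase of meiosis, and round spermatids (RS), the haploid cells formed by the meiotic divisions. Each came from wild-type mice (WT) and from mice labelled Setd2KO, with 2 libraries in each of the 4 groups, and each of these groups also had 1 list of H3K36me3 peaks. H3K36me3 is the histone mark that Setd2 places along transcribed genes. The labels name neither a Cre driver nor the deleted part of Setd2, and whether a group's libraries are from different mice is not stated. The p-values therefore reflect only how far these libraries spread, which may be technical.

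Levels are in FPKM, that is, fragments scaled by transcript length in kilobases and by library depth in megareads. Depth worked back from the low values was 50.8 to 84.9 megareads per library, at which 1 read per kilobase was worth 0.0118 to 0.0197 FPKM. Setd2 stood at 21.2 and 19.1 FPKM in PD WT and at 21.03 and 21.4 in PD Setd2KO, while in RS it stood at 5.24 and 5.58 for WT and 12.1 and 8.67 for Setd2KO (log2 change 0.81, adjusted p = 0.00162, limma). Because these values cover the entire gene, they cannot check a deletion, so the genotypes, and with them every direction given between genotypes, are as labelled. The first PD WT library stood apart over all genes, with 73.2% of them lower in it than in the second and with FPKM that summed to 181915, where every other library came to between 219288 and 234791. Of the 88 respiratory genes that could be tested, 80 were lower in it, with a median ratio of 1.33 between the libraries, against 0.942 to 1.03 in the other 3 groups. Results that use PD WT are therefore also given without it. All 14 spermatocyte markers reached 1 FPKM in PD and all 14 round spermatid markers in RS. That level did not separate the cell types, since 13 of the spermatocyte markers also reached it in RS of either genotype. Among round spermatid markers, 13 did so in WT spermatocytes and 14 with Setd2KO, and all 9 elongating spermatid markers did so in both. The sums did differ, at 981 to 1245 FPKM in PD beside 350 to 575 FPKM in RS for spermatocyte markers. For round spermatid markers they were 189 to 280 FPKM in PD and 1583 to 3077 FPKM in RS. Summed Sertoli cell markers (9 of 10 matched) stayed at 2.83 to 12.5 FPKM and Leydig cell markers (7 of 7) at 4.05 to 14.4 FPKM, and none of the 6 erythrocyte and endothelium markers reached 1 FPKM in any group. In bulk samples such as these, fewer cells of a type and less RNA per cell cannot be told apart.

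The respiratory genes were strongly transcribed in both cell types. Their median level was 36.5 and 47.5 FPKM in the PD WT libraries, 50.7 and 49.8 with PD Setd2KO, 32.5 and 30.9 for RS WT, and finally 27.03 and 29.0 among the RS Setd2KO libraries. Over all genes tested the median of a library was 4.49 to 5.91 FPKM. Together the 93 genes made up 2.45% and 2.53% of all FPKM in PD WT and 2.73% and 2.76% with Setd2KO. In RS the share was 1.62% and 1.56% for WT, then 1.80% and 1.71% for Setd2KO. The share was thus higher in every PD library than in every RS library, and within each cell type it was higher in both Setd2KO libraries than in both WT libraries. Of the 93 genes, 88 reached a mean of 1 FPKM in at least 1 group and were tested. The 5 that did not were the X-linked Cox7b, the muscle isoforms Cox7a1 and Cox8b, and the complex I assembly factors Ndufaf4 and Ndufaf6.

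Levels were uneven within each complex. In complex I the highest were Ndufa12, Ndufa7 and Ndufb8, small supernumerary subunits, between 67.5 and 126 FPKM in every library, while Ndufb11 stayed under 2.76 FPKM. All 4 genes of complex II lay between 20.9 and 48.1 FPKM in PD. In complex III the core subunit Uqcrc1 led, at 78.3 to 121 FPKM. In complex IV the highest gene was the testis isoform Cox8c (109 to 332 FPKM), followed by Cox6b2 (155 to 273 FPKM) and the ubiquitous Cox4i1 (105 to 288 FPKM). The catalytic beta subunit gene Atp5b led the ATP synthase, at 134 to 181 FPKM, ahead of Atp5j and Atp5e. The genes Atp5g1, Atp5g2 and Atp5g3 encode the same mature c subunit of the rotor, and of these Atp5g1 and Atp5g3 exceeded Atp5g2 in every library. The highest of the assembly factors was Ndufaf3, at 193 and 272 FPKM in PD WT and 88.6 and 87.3 FPKM in RS WT. How reads shared with near-identical copies were assigned is not given in the sources used here, and many of these genes have processed pseudogenes, so levels of single genes carry that uncertainty.

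**Figure D1:**
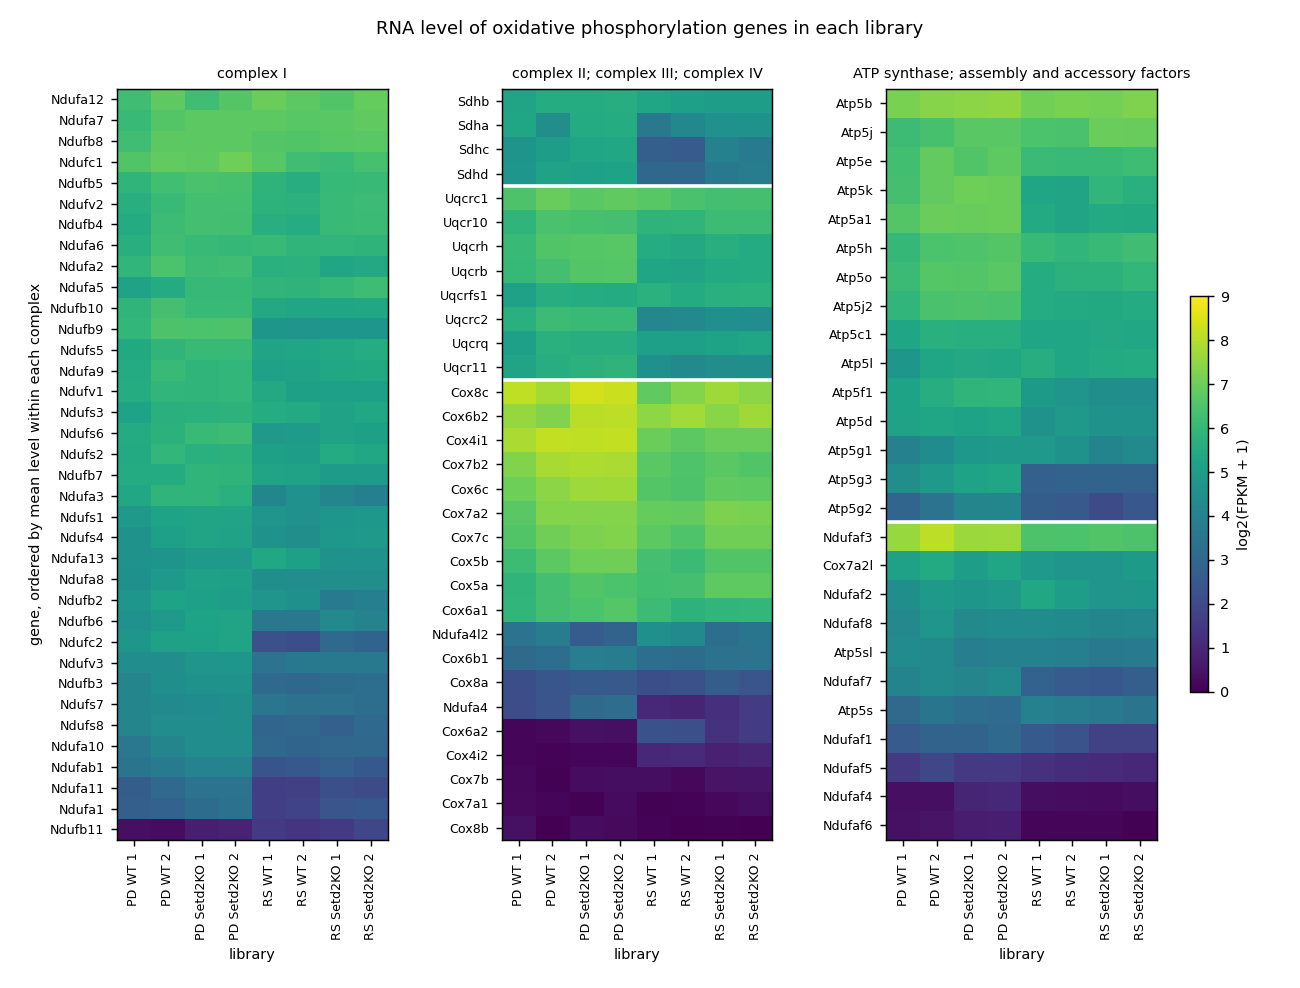
Level of each of the 93 genes (rows, by complex and mean level) in each of the 8 libraries (columns), as log2(FPKM + 1) on a colour scale from 0 to 9. Most subunits are brighter (higher) in the PD libraries, while Cox6a2, Cox4i2 and Ndufb11 are brighter in RS.

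Testis isoforms outweighed their ubiquitous partners for 3 subunits of complex IV. Cox6b2 (chromosome 7, 4703394 to 4704504, minus strand, mm9) stood at 189, 155, 268, 273, 178, 216, 167 and 207 FPKM in PD WT, PD Setd2KO, RS WT and RS Setd2KO in turn. Cox6b1 (chromosome 7, 31401993 to 31411170, minus strand) stood at 7.63, 8.54, 13.3, 13.1, 8.51, 7.985, 9.32 and 9.78 FPKM. The testis form was 17.96 to 27.1 times the ubiquitous form in FPKM, and within each cell type the ratios of WT and Setd2KO overlapped. Cox8c (chromosome 12, 104137516 to 104138744, plus strand) exceeded Cox8a (chromosome 19, 7289648 to 7292106, minus strand) 31.2 to 81.1 times. Cox7b2 (chromosome 5, 71834062 to 71939444, minus strand) stood at 89.8 to 235 FPKM, while Cox7b (chromosome X, 103211039 to 103217789, plus strand) had 2 to 28 reads in a library. Reads of low genes, here and below, were worked back from FPKM and are the smallest counts that fit. In the 7 libraries with at least 7 Cox7b reads the ratio was 221 to 1041. It was not the case that every subunit with a tissue isoform used it: Cox4i1, Cox6a1 and Cox7a2 were the main forms, and Cox4i2 (lung), Cox6a2 and Cox7a1 (heart and muscle) reached at most 0.011, 0.0653 and 0.00172 of their partners. Cox8b was listed at 0 in 3 libraries and had 1 to 6 reads in the others. Outside the complexes, the testis cytochrome c Cyct exceeded the ubiquitous Cycs 25.1 to 169 times.

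**Figure D2:**
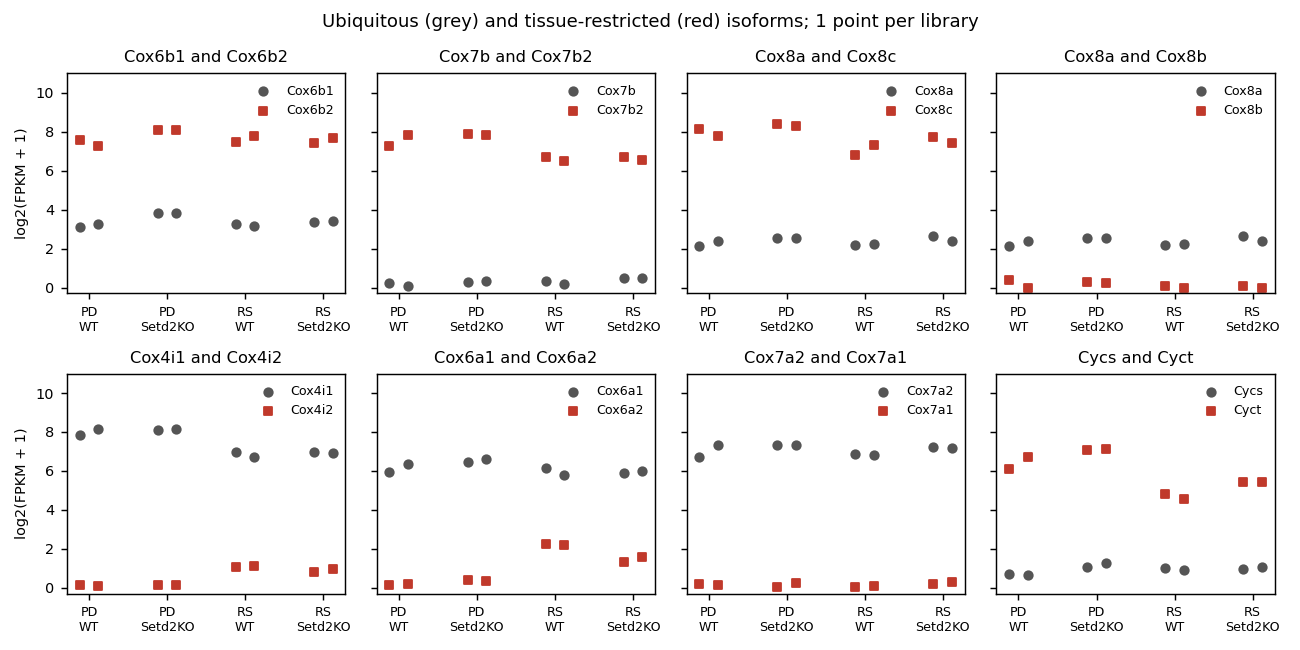
Ubiquitous (grey circles) and tissue-restricted (red squares) isoforms as log2(FPKM + 1), with 1 point per library and 2 libraries in each group. Red lies far above grey for Cox6b2, Cox7b2, Cox8c and Cyct, and below it in the other 4 panels.

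The promoters of these isoform pairs are shown because the partners differ so widely in level. The 250 bases before the annotated start are given as RefSeq lists them for GRCm38.p6, in lower case, with matches to the motifs listed further below in capitals. The table of promoters had no entry for Cox8c.
Cox6b1 (chr7:30626115-30626364, minus strand): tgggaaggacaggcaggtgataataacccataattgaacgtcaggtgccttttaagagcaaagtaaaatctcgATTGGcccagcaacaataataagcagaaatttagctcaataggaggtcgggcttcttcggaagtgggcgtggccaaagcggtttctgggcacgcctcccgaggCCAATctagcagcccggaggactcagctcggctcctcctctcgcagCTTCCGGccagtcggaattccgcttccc
Cox6b2 (chr7:4753095-4753344, minus strand): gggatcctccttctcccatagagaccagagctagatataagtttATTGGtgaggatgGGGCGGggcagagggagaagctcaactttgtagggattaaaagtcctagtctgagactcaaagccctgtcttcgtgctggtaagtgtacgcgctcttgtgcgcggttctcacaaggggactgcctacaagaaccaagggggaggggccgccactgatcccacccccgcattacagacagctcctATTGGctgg
Cox7b (chrX:106015450-106015699, plus strand): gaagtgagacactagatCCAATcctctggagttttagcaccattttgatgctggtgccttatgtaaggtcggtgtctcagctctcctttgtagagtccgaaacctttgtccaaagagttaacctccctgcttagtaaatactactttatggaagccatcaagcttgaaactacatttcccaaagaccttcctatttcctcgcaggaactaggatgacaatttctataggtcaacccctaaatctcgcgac
Cox7b2 (chr5:71548206-71548455, minus strand): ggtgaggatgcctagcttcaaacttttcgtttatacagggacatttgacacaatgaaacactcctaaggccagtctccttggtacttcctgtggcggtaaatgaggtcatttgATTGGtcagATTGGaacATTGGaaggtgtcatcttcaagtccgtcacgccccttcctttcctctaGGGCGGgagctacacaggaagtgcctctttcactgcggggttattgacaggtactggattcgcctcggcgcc
The Cox6b1 window held the ETS core 28 bases before the start and CCAAT boxes 74 and 177 bases before it. In Cox6b2 the CCAAT boxes lay 9 and 206 bases before the start, with an Sp1 core at 193. Cox7b held a single CCAAT box, at 233, whereas Cox7b2 held 3 close together at 120, 128 and 137 and an Sp1 core at 72. The observed to expected ratio of CpG was 0.768 in Cox6b1 and 0.43 in Cox6b2, and 0.431 in Cox7b and 0.567 in Cox7b2, so the testis form had the lower value in the first pair and the higher in the second.

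Between the spermatocyte and the round spermatid, more respiratory genes fell than rose, as was so for all genes. In WT, 46 of the 88 tested genes were lower in RS (limma on log2(FPKM + 1), adjusted p under 0.05) and 10 were higher. Over all 11452 genes tested, 46.7% were lower and 36% higher. In this fit the share of members that were lower was near the background, and the share that were higher was below it. The median log2 change of the 88 genes was -0.41, against -0.21 over all genes. By complex the medians were -0.43 (complex I, 21 of 36 lower), -1.45 (complex II, 3 of 4 lower), -0.56 (complex III, 4 of 8 lower), -0.16 (complex IV, 5 of 16 lower), -0.51 (ATP synthase, 8 of 15 lower) and -0.39 (assembly and accessory factors, 5 of 9 lower). Without the first PD WT library 65 genes were lower (50% of all genes) and 8 higher (34.4%), and without the second 40 were lower (44.5%) and 18 higher (38.2%). By non-overlap of the libraries alone, 53 were lower and 12 higher, where all genes gave 50.6% and 39%. After upper-quartile scaling 60 members were lower and 11 higher, where all genes gave 5792 and 4039 of 11452. After quantile normalization 67 members were lower and 9 higher, where all genes gave 5940 and 3945. With either scaling the share of members that were lower was thus above the background.

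Ndufc2 (chromosome 7, 104548513 to 104556310, plus strand), a subunit of the complex I membrane arm, had the largest drop in WT. It stood at 26.4 and 34.2 FPKM in PD and at 3.67 and 3.50 FPKM in RS, with no overlap, a log2 change of -2.76 (SE 0.15) and an adjusted p of 1.02e-08 (limma). Relative to the median of all genes the log2 change was -2.55. Sdhc (chromosome 1, 173059288 to 173080734, minus strand), a membrane anchor of complex II, stood at 24.0 and 31.6 FPKM in PD and 5.64 and 4.97 FPKM in RS. Its change was -2.18 (SE 0.15, adjusted p = 1.05e-07, limma), or -1.97 relative to all genes. The other anchor, Sdhd, moved from 25.5 and 35.3 to 7.30 and 7.19 FPKM (-1.91, or -1.70 relative to all genes). Of the 2 catalytic subunits, Sdhb was at 37.3 and 46.5 FPKM in PD and 39.3 and 33.2 in RS and did not pass the test (adjusted p = 0.239, limma), and Sdha went from 38.7 and 20.9 to 11.2 and 17.3 FPKM (-0.98). Next in size came Atp5g3 (21.1 and 27.5 to 5.72 and 6.21 FPKM, -1.85) and the complex III core subunit Uqcrc2 (51.0 and 71.1 to 16.9 and 17.7 FPKM, -1.74). The assembly factor Ndufaf3 and the ubiquitous Cox4i1 fell as well, by 1.37 and 1.17 on the log2 scale.

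A few genes went the other way. Of the 10, Cox6a2, Cox4i2 and Ndufb11 passed the filter of 1 FPKM through the RS groups alone, so a gene of that kind had to be higher in RS to be tested, and their values are given as a description. Cox6a2 (chromosome 7, 135348949 to 135349880, minus strand), the heart and muscle isoform, went from 0.0890 and 0.147 FPKM (3 and 5 reads) in PD WT to 3.79 and 3.58 FPKM (212 and 120 reads) in RS WT. The log2 change was 2.07, or 2.28 relative to all genes, and it was 1.10 for the X-linked Ndufb11 and 0.97 for Cox4i2. Ndufa4l2, above 1 FPKM in all groups, rose by 0.81 and Ndufa13 by 0.63. Among the testis isoforms Cox8c and Cox7b2 were lower in RS WT (-0.91 and -0.96), and Cox6b2 did not pass the test, with a log2 change of 0.19 and a 95% interval from -0.20 to 0.59.

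In Setd2KO, 57 of the 88 genes were lower in RS than in PD and 4 were higher, where all genes gave 48.5% lower and 34.2% higher. The median was -0.62, against -0.27 over all genes. The libraries did not overlap for 74 that were lower and 9 that were higher, against 55% and 39.6% of all genes. The largest changes were in Atp5g3 (-2.37), Ndufc2 (-2.21), Atp5g2 (-1.84), the complex I subunit Ndufa3 (-1.81) and Ndufa4 (-1.78). Those higher were Cox6a2 (1.07), Ndufb11 (0.91), Cox4i2 (0.74) and Ndufa4l2 (0.63). Of these, 3 (Cox6a2, Ndufb11 and Cox4i2) passed the filter through the RS groups alone. Their direction was thus set by the filter here as in WT, and their values are a description. Ndufa4l2, above 1 FPKM in all groups, also rose in WT.

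**Figure D3:**
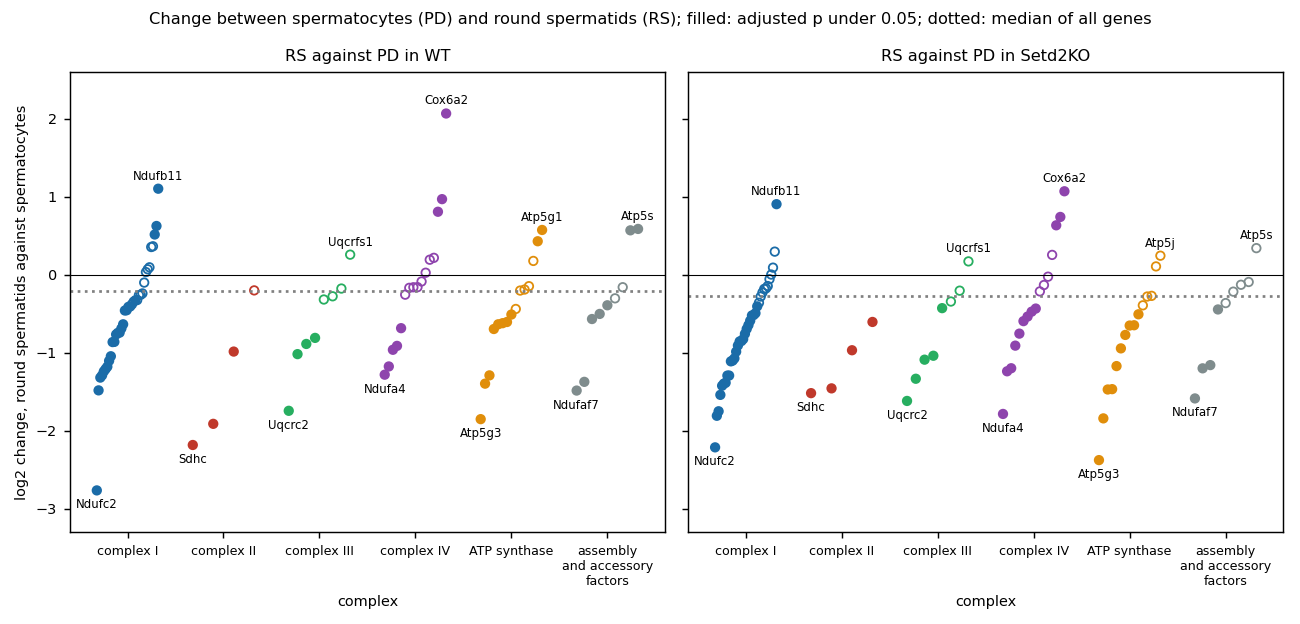
Log2 change from PD to RS for the 88 tested genes, sorted within each complex, in WT (left) and Setd2KO (right), with filled points for adjusted p under 0.05 and a dotted line at the median of all genes tested. In both panels most points lie below 0, with Ndufc2 or Atp5g3 lowest and Cox6a2 highest.

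In spermatocytes most respiratory genes had no call between Setd2KO and WT, and those that did were mainly higher in Setd2KO. In PD Setd2KO, 21 of the 88 genes were higher than in WT and 2 lower (limma, adjusted p under 0.05), while over all genes 29.8% were higher and 6.3% lower. The share of members called higher was therefore below that background. The median log2 change was 0.27, against 0.19 over all genes. The direction of all genes depended on scaling, since their median was 0.10 after upper-quartile scaling and 0.004 after quantile normalization, so changes in PD are also given relative to the median. The libraries did not overlap for 49 genes that were higher and 3 that were lower, against 56.6% and 14.5% of all genes. Without the first PD WT library 11 genes were higher (19.1% of all genes) and 5 lower (9.11%), with a median of 0.10 against 0.13 over all genes. Without the second 55 were higher (34.9%) and 2 lower (5.17%). Without the first PD Setd2KO library 8 were higher (19.1%) and 1 lower (3.34%), and without the second 4 were higher (18.5%) and 1 lower (4.21%).

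By complex, 9 of 36 genes of complex I were higher, 1 of 4 of complex II, 1 of 8 of complex III, 5 of 16 of complex IV and 5 of 15 of the ATP synthase, and none of these but Ndufa4l2 was lower. Of the 9 assembly and accessory factors tested, none was higher and Atp5sl was lower. The genes of the ATP synthase c subunit were among those with the largest rises. Atp5g2 (chromosome 15, 102493299 to 102501478, minus strand) went from 6.71 and 9.89 FPKM (WT) to 16.1 and 16.5 FPKM (Setd2KO). Its log2 change was 0.92 (SE 0.17, adjusted p = 0.00258, limma), or 0.73 relative to all genes. Atp5g1 went from 14.4 and 19.9 to 26.6 and 28.2 FPKM (0.67, or 0.47 relative to all genes), and Atp5g3 from 21.1 and 27.5 to 36.1 and 38.9 FPKM (0.62, or 0.43 relative). All 3 genes of the c subunit thus rose together, with no overlap between genotypes.

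The complex IV subunit Ndufa4 (chromosome 6, 11850373 to 11857446, minus strand) went from 3.34 and 4.17 to 7.55 and 8.35 FPKM, a log2 change of 0.92 (SE 0.14, adjusted p = 0.000914, limma). Its paralogue Ndufa4l2 (chromosome 10, 126951995 to 126954210, plus strand), known as a hypoxia-induced form, went from 9.72 and 12.6 to 5.20 and 6.20 FPKM, a change of -0.85 (SE 0.16, adjusted p = 0.00286, limma). The paralogues moved in opposite directions, 0.73 above and -1.04 below the median of all genes. The level of Ndufa4 overtook that of Ndufa4l2 in both Setd2KO libraries. Both partners of the Cox6b pair rose, Cox6b1 and Cox6b2 by 0.65 each. Ndufa5, of the complex I hydrophilic arm, rose by 0.65, from 35.6 and 45.5 to 63.6 and 64.2 FPKM. Across the 16 alternative settings of this comparison, 3 of the 21 genes called higher (Atp5g2, Ndufa4 and Cox6b1) and, of the 2 called lower, Ndufa4l2 kept their call. Cox6b2, Ndufa5 and Atp5sl lost theirs without either PD Setd2KO library, Cox6b2 also after quantile normalization (adjusted p = 0.0776, limma), Cox6b2 and Atp5sl also in a fit on the PD groups alone (0.062 and 0.0653), and Atp5g1 without the first PD WT or the second PD Setd2KO library. In PD the 14 round spermatid markers summed to 220 and 273 FPKM for WT and 280 and 189 FPKM for Setd2KO, and the 10 spermatogonium markers to 8.75 and 9.20 beside 16.6 and 22.4 FPKM. A wider set held 517 genes at 20 FPKM or more in RS WT and at least 20 times lower in PD WT. Their median share of the RS mean of the same genotype was 1.92% and 2.77% in PD WT and 13.1% and 7.67% in PD Setd2KO. A low share in PD WT was fixed by the choice of that set, and the RS means differ between genotypes. The part of either cell type in the changes of the respiratory genes was not tested. In RS WT itself Ndufa4, at 0.981 and 0.920 FPKM, Atp5g2, at 5.30 and 4.77 FPKM, and Atp5g3, at 5.72 and 6.21 FPKM, stood below their PD WT levels, while Atp5g1, at 27.8 and 23.7 FPKM, stood above.

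In round spermatids most respiratory genes had no call between Setd2KO and WT, and the calls went in both directions. In RS Setd2KO, 11 of the 88 genes were higher than in WT and 7 lower, against 20.9% and 21.8% of all genes, so both shares were below the background. The median log2 change was 0.08, against 0.02 over all genes. After upper-quartile scaling 24 were higher (26.5% of all genes) and 9 lower (22.1%), and after quantile normalization 27 were higher (26.3%) and 10 lower (23.3%), so the share of calls that were upward moved with the scaling. The libraries did not overlap for 40 that were higher and 21 that were lower, against 40.4% and 37.7% of all genes. Complex II held 3 of the 11 genes that rose, complex I 5, the ATP synthase 2 and complex IV 1, while complex III had no call in either direction.

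The largest rise was in Sdhc, from 5.64 and 4.97 FPKM in RS WT to 14.6 and 12.4 FPKM in RS Setd2KO. The log2 change was 1.20 (SE 0.15, adjusted p = 0.000146, limma). Sdhd went from 7.30 and 7.19 to 11.6 and 13.1 FPKM (0.69), and Sdha, the flavoprotein subunit, from 11.2 and 17.3 to 22.6 and 23.6 FPKM (0.69, adjusted p = 0.048, limma). Sdhb, at 39.3 and 33.2 FPKM (WT) beside 31.0 and 30.9 FPKM (Setd2KO), did not pass (adjusted p = 0.263, limma). The call on Sdha was lost in 9 of the 16 settings, among them both scalings and the fits without the first RS WT library or either RS Setd2KO library, and those on Sdhc and Sdhd held in the 16 alternative settings. Ndufc2 rose from 3.67 and 3.50 to 7.36 and 6.47 FPKM (0.79) and the X-linked Ndufa1 from 2.20 and 2.47 to 4.20 and 4.55 FPKM (0.69), and these calls also held throughout.

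The same RS WT libraries enter the comparison of RS with PD above, so a gene's values in both are not independent. As a share of the PD mean of the same genotype, Sdhc was at 20.3% and 17.9% in RS WT and at 36.1% and 30.8% in RS Setd2KO. For Ndufc2 the shares were 12.1% and 11.5% and then 20.7% and 18.2%, and for Sdhd 24.1% and 23.7% and then 32.6% and 36.8%. Spermatocyte markers moved in the same direction: summed over the 14 genes, of which 13 reached 1 FPKM in both genotypes and none was at 0 in all libraries, they came to 350 and 365 FPKM for RS WT against 575 and 524 FPKM for RS Setd2KO. Their part in the result was not tested.

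The 7 genes that fell in RS Setd2KO belonged to several complexes. Ndufa4l2 went from 22.1 and 18.3 to 8.44 and 10.4 FPKM, a log2 change of -1.03 (SE 0.16, adjusted p = 0.000592, limma), so it was lower in Setd2KO in both cell types. Ndufb2 (chromosome 6, 39542582 to 39549470, plus strand), of the complex I membrane arm, went from 24.9 and 21.9 to 11.9 and 13.7 FPKM (-0.83). Cox6a2 went from 3.79 and 3.58 to 1.49 and 2.00 FPKM (-0.78). The assembly factor Ndufaf1 went from 4.81 and 3.945 to 2.41 and 2.41 FPKM (-0.65), and Ndufa13, known also as Grim19, from 40.03 and 33.8 to 23.3 and 23.3 FPKM (-0.64). These 5 kept their call in the 16 alternative settings. Atp5g1 (-0.56) and Ndufaf2 (-0.51) lost it when single RS libraries were left out. Summed round spermatid markers moved with these genes, from 3077 and 2795 FPKM in RS WT to 1583 and 1931 FPKM in RS Setd2KO, with all 14 at 1 FPKM or more in both genotypes. The 9 elongating spermatid markers, all at 1 FPKM or more, summed to 4173 and 4292 FPKM for WT and 1439 and 1566 FPKM for Setd2KO. Peritubular cell markers (5 of 5 matched) were low and higher in Setd2KO, at 2.18 and 3.29 beside 10.7 and 9.68 FPKM, and Sertoli cell markers likewise, at 5.33 and 7.20 beside 12.5 and 10.6 FPKM. The part of these cells in the result was not tested.

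**Figure D4:**
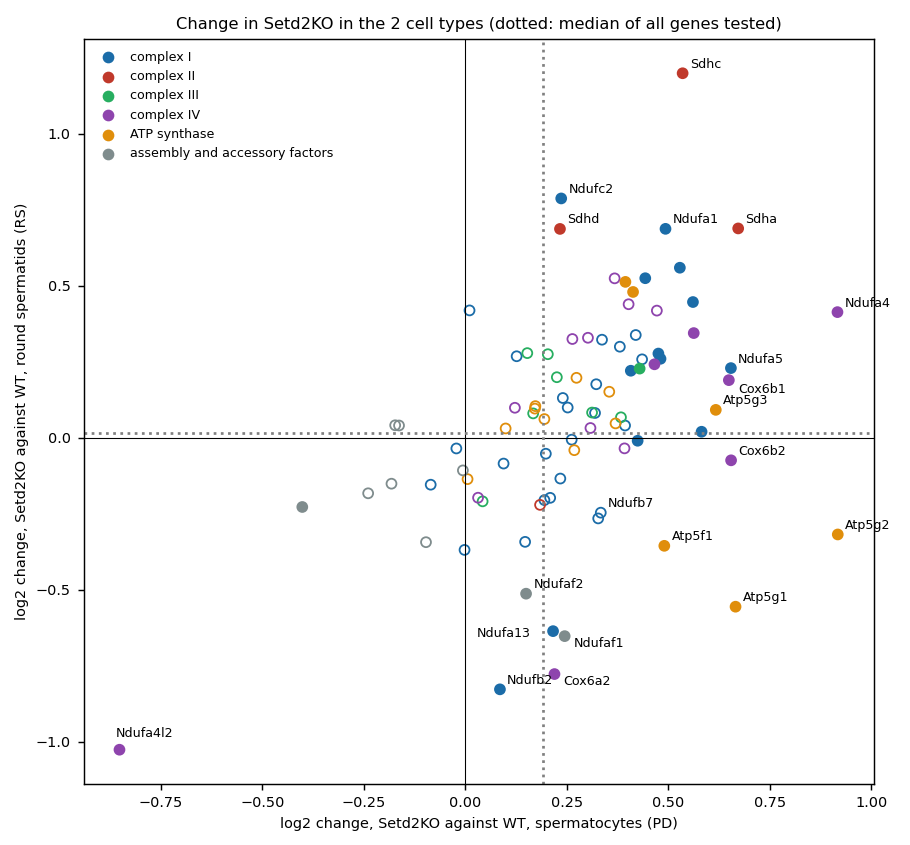
Log2 change in Setd2KO against WT for each of the 88 tested genes in PD (horizontal) and RS (vertical), coloured by complex, filled where adjusted p is under 0.05 in either cell type, with dotted lines at the medians of all genes tested. Sdhc stands at the top, Ndufa4l2 at the lower left, and Atp5g1 and Atp5g2 at the lower right.

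The effect of Setd2KO itself differed between the cell types for 11 of the 88 genes: it was lower in RS than in PD for 10 and higher for 1 (limma on the difference between effects, adjusted p under 0.05). Over all genes 27.3% were lower and 7.76% higher, and the median difference was -0.18 for the 88 genes and -0.16 for all. After upper-quartile scaling 7 were lower (22.9% of all genes) and 4 higher (16.2%), and after quantile normalization 10 were lower (18.1%) and 6 higher (20.3%), as the median of all genes moved to -0.02 and 0.05. Without the first PD WT library 9 were lower (24.1%) and 9 higher (13.8%), and without the second 35 were lower (30.8%) and 0 higher (6.98%), with 48 in either direction at an unadjusted limma p under 0.05. The differences thus depended on which PD WT library was used. The largest differences were in the c subunit genes Atp5g2 and Atp5g1. The remaining c subunit gene, Atp5g3, had no call on the difference. Atp5g2 was higher in PD Setd2KO than in WT and was at 5.30 and 4.77 FPKM in the RS WT libraries against 3.28 and 4.47 FPKM with RS Setd2KO, a difference between effects of -1.24 (SE 0.24, adjusted p = 0.0031, limma). Atp5g1 rose in PD and fell in RS, where it went from 27.8 and 23.7 to 15.8 and 18.6 FPKM, with a difference of -1.22. Relative to the median of all genes these differences were -1.08 and -1.07. Atp5g1 was the single gene of the 8 called in both cell types whose directions were opposite: Atp5j, Ndufa1, Ndufa4, Ndufa11, Ndufb6 and Sdhc rose in both, and Ndufa4l2 fell in both.

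The promoter of Atp5g2 is shown because it is the member with the largest difference between effects and holds the binding core of Nrf1, a factor known to drive respiratory genes, in capitals 42 bases before the start (RefSeq, GRCm38.p6).
Atp5g2 (chr15:102671048-102671297, minus strand): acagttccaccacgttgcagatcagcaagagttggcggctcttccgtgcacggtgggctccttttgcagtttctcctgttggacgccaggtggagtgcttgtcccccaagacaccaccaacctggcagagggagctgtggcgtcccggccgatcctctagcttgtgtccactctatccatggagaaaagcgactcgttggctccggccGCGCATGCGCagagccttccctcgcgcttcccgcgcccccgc
The 6 motifs were searched on both strands of the 250 bases before the start in the 77 members with an entry in the RefSeq table, and their shares are given beside those of 17492 promoters of the same length. The Nrf1 core, which is GCGCA followed by its reverse complement, was found in 5 (6.49%, against 1.06%), namely Atp5g2, Atp5k, Cox6a1, Ndufa11 and Ndufaf4. The ETS core CCGGAAG, which GABP binds, was found in 13 (16.9%, against 9.15%), among them Cox6b1, Ndufaf1, Ndufb6 and Sdhd. The CRE TGACGTCA was found in 4 (5.19%, against 1.98%): Ndufa10, Ndufa11, Ndufb2 and Uqcrfs1. CCAAT was found in 35 (45.5%, against 36.5%) and the Sp1 core GGGCGG in 30 (39.0%, against 42.7%). The letters AAGATGGC of the Yy1 core were not in any of the 77 windows, against 1.498% of all. None of these motifs contains another. The median observed to expected ratio of CpG was 0.787 in the members and 0.537 in all promoters. A match is a description of the sequence and shows no binding.

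The shares over all genes given above are the background for the lists that follow: 29.8% higher and 6.3% lower in PD Setd2KO, 20.9% and 21.8% in RS Setd2KO, and 36% and 46.7% from PD to RS in WT. With lists this short, no count is read as particular to its list. Of regulators known to act on respiratory genes, 6 were tested from a list of 9, and 2 were higher and 2 lower in RS Setd2KO, while 1 was higher and none lower in PD Setd2KO. Gabpb1, the activating partner of the GABP factor, went from 6.12 and 5.96 FPKM in RS WT to 2.15 and 2.50 FPKM in RS Setd2KO (-1.08, SE 0.11, adjusted p = 3.82e-05, limma). Nrf1 went from 4.64 and 4.74 to 2.37 and 2.94 FPKM (-0.64), and Gabpa from 2.48 and 2.48 to 3.60 and 3.39 FPKM (0.37). Yy1 went from 2.02 and 2.49 to 5.34 and 4.17 FPKM (0.82). The difference between the effects in RS and PD passed the test for Nrf1 (-1.01) and Gabpb1 (-1.24).

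Among genes that keep and transcribe the mitochondrial genome, 3 of 9 were lower and none higher in RS Setd2KO. Tfam, which packages mitochondrial DNA, went from 9.60 and 8.38 to 3.04 and 2.69 FPKM (-1.37, SE 0.12, adjusted p = 8.99e-06, limma). In WT it was higher in RS than in PD, where it stood at 0.774 and 1.04 FPKM. Mterf2, of the mitochondrial terminator family, was lower in Setd2KO in both cell types, from 3.93 and 5.24 to 1.90 and 2.15 FPKM in PD and from 4.801 and 4.93 to 2.23 and 1.86 FPKM in RS. Polrmt, the mitochondrial RNA polymerase, was the other gene called lower in RS.

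Assembly factors outside the naming rule were counted from fixed lists. For complex I, 3 of 7 were higher in PD Setd2KO, and 3 were lower and 1 higher in RS Setd2KO. Nubpl, which inserts iron-sulphur clusters, rose in PD from 1.84 and 1.73 to 3.05 and 3.10 FPKM and fell in RS from 12.8 and 11.2 to 4.52 and 6.31 FPKM. Foxred1 rose in PD, from 6.73 and 6.87 to 8.87 and 9.56 FPKM, and fell in RS, from 3.86 and 4.02 to 1.43 and 1.48 FPKM. The difference between the effects passed the test for both (-1.58 and -1.40). For the ATP synthase, Atpaf1 and Atpaf2 were the 2 of 5 called lower in RS Setd2KO. In PD Setd2KO, Usmg5, a small ATP synthase subunit with a name outside the rule, rose from 10.8 and 15.4 to 25.0 and 24.3 FPKM, and the inhibitor Atpif1 fell from 30.02 and 41.7 to 24.3 and 23.1 FPKM.

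Complex IV assembly gave 6 of 18 higher and none lower in PD Setd2KO, and 3 higher and 2 lower in RS Setd2KO. The copper chaperone Cox17 rose in both, from 24.2 and 27.98 to 34.7 and 37.1 FPKM in PD and from 15.1 and 13.3 to 20.2 and 20.5 FPKM in RS. From PD to RS in WT, 14 of the 18 were lower and none higher, led by the heme synthesis gene Cox10 (-1.78) and by Cox14 (-1.71). For complex III, 2 of 6 were higher in PD Setd2KO and 1, Uqcc1, was lower in RS Setd2KO, and Cyc1, the cytochrome c1 subunit, fell from PD to RS in WT by 1.98 on the log2 scale. All 4 complex II factors were lower in RS than in PD in WT, 1 was higher in PD Setd2KO and none was called in RS Setd2KO. Of the 6 genes tested from the list of cytochrome c, ADP/ATP carriers and pyruvate dehydrogenase isoforms, 4 were higher in each cell type of Setd2KO. Cyct went from 68.3 and 102 to 135 and 137 FPKM in PD (0.69) and from 27.7 and 22.6 to 42.5 and 42.2 FPKM in RS (0.74). The testis ADP/ATP carrier Slc25a31 rose in RS from 5.61 and 7.72 to 12.9 and 11.5 FPKM (0.79).

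The 3 X-linked members were low, and differed from each other. Ndufa1 (chromosome X, 34727584 to 34731233, minus strand) stood at 5.55 and 6.197 FPKM in PD WT and fell to 2.20 and 2.47 FPKM in RS WT. Ndufb11 (chromosome X, 20192452 to 20194690, minus strand) went the other way, from 0.298 and 0.227 FPKM (13 and 10 reads) in PD WT to 1.86 and 1.57 FPKM in RS WT. It was higher in PD Setd2KO, at 0.700 and 0.811 FPKM. Cox7b had 8 and 2 reads in PD WT and 22 and 7 in RS WT. As background, the X chromosome is silenced in pachytene spermatocytes, and much of it stays repressed afterwards.

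The H3K36me3 lists show how the same genes were marked. In PD WT, 87 of the 93 genes were touched by a peak (44.4% of all genes) and 72 (77.4%, exact 95% interval 67.6 to 85.4) had at least 50% of their length under peaks, where all genes gave 31.3%. In RS WT, 82 were touched (43% of all genes) and 69 (74.2%, 64.1 to 82.7) were covered to that extent, where all genes gave 29.4%. Intervals cover counting error only, and with 1 list per group there is no test. Among autosomal genes in the range of level and length of the members, 88.5% of 2616 in PD and 69.5% of 2856 in RS were covered to that extent, beside 84.1% of 63 and 83.6% of 61 members within the same range. At least 1 base was under a peak for 98.4% and 95.1% of these members, beside 95.5% and 79.6% of the like genes. In neither Setd2KO list was any of the 93 genes touched (which allows a share of up to 3.89%, the upper exact limit), and no Setd2KO peak lay within 1000 bases of one. Of all genes, 1.93% in PD Setd2KO and 5.22% in RS Setd2KO were touched, and 0.0145% and 0% were covered over at least 50%. Of the isoforms, Cox8c lay wholly under peaks in both WT lists, Cox7b2 was covered over 88.8% and 91.4% of its 105383 bases, and Cox6b2 over 71.5% and 92.1%, beside 39.2% and 55.6% for Cox6b1. Cox8b, at 0 to 6 reads, also lay wholly under a peak of 8907 bases in PD WT that extends beyond the gene, while Cox7b had none.

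A group of 4 genes was well covered in PD WT but lacked any RS WT peak. They were Atp5j (100% in PD), Ndufaf3 (100%), Atp5j2 (91.5%) and Ndufa9 (89.5%), and in RS WT their transcripts stood at 86.3, 88.0, 45.6 and 34.8 FPKM. These were 4 of the 72 genes covered in PD (5.56%), and among other autosomal genes the share was 353 of 6377 (5.54%), so the members did not stand out. Atp5j lies within 1000 bases of Gabpa, and the nearest RS WT peaks were 92.7 kb and 986 kb away. Ndufaf3 (chromosome 9, 108468196 to 108469673, minus strand) lies beside Impdh2 under a PD WT peak from 108450699 to 108469846. No member was covered in RS and without a peak in PD. Atp5g1, at 17.1 FPKM in PD WT and 25.7 FPKM in RS WT, had no peak in either list, and neither had the 3 X-linked members, Cox4i2 or Cox6a2.

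**Figure D5:**
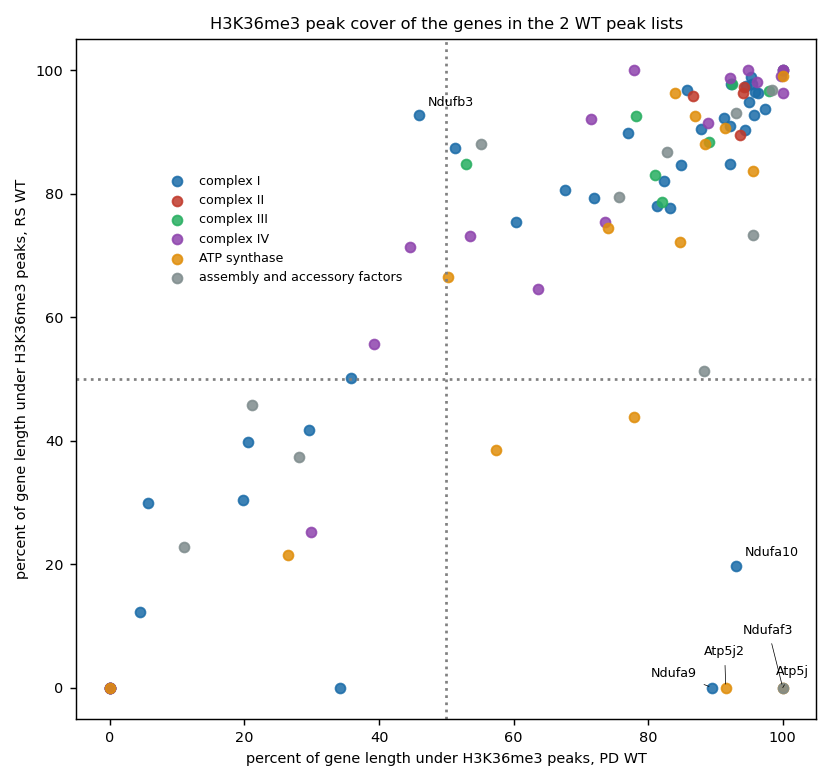
Percent of each gene's length under H3K36me3 peaks in PD WT (horizontal) and RS WT (vertical), with 1 point per gene, coloured by complex, and dotted lines at 50%. Most points lie at the upper right, and Ndufa9, Atp5j2, Atp5j and Ndufaf3 lie along the lower edge.

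Cover in WT was set beside the change in Setd2KO. In PD, the 71 tested genes with at least 50% cover had a median log2 change of 0.26, with 14 higher and 2 lower, and the 5 with no peak had a median of 0.48, with 3 higher. Called in either direction were 22.5% of the former, where all such genes gave 28.5%, and 3 of the 5, where all genes with no peak gave 49.8%. Over all tested genes the medians were 0.15 and 0.29. In RS the medians were 0.10 for 68 covered members and 0.16 for the 10 with no peak, against 0.04 and -0.03 over all tested genes. Sdhc, with the largest rise in RS, was covered over 94.1% and 96.3% of its length in PD WT and RS WT, and Ndufa4l2, lower in both cell types, over 63.6% and 64.5%. Across the 90 autosomal members, cover followed level with a Spearman coefficient of 0.40 in PD and 0.298 in RS, and gene length with 0.175 and 0.185. These are given as descriptions across genes of the same libraries.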

How the data were processed

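RNA values are FPKM that the authors deposited per gene and library, on mm9 with TopHat2, Cufflinks and Cuffdiff per the submitters' processing notes. The peak lists hold a score per peak that the authors deposited, with a lowest score of 50 and with MACS in the peak names per the file headers, and Bowtie and bedtools per the submitters' processing notes. Tool versions, the rule for reads that map to several places, and the use of the spike-in chromatin named in the labels' protocols are not given in the sources used here. The 2 input samples were not analysed here.

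Depth came from olfactory receptor genes, whose low values were whole reads within 0.003 reads for 99.3% to 100% of values. Reads of low members were worked back from FPKM and depth, at the shortest length that gave whole reads within 0.03 in all 8 libraries. Several lengths fit, 48 for Cox8b, 15 for Cox7b, 9 for Cox6a2 and 7 for Ndufb11, so the true counts may be higher. Values were tested as log2(FPKM + 1) with limma 3.58.1 (R 4.3.3, trend on intensity), all 4 groups in 1 fit, for the 11452 genes whose mean reached 1 FPKM in any group. p-values are two-sided and Benjamini-Hochberg adjusted over these genes, and called means under 0.05. A fold on this scale understates the change of low genes. On simulated data for the PD comparison over 11452 genes, 177 of 200 genes changed by 1 on the log2 scale were recovered (88.5%), and 12 unchanged genes were called. The changed genes were drawn from those not low in PD WT. No shift shared by the genes of a library was simulated. Every member rose by less than 1 in that comparison (at most 0.92), so the recovery of changes of their size was not simulated. Cover is the percent of a gene's interval under peaks, with exact (Clopper-Pearson) 95% intervals. Pandas 2.3.3, NumPy 2.4.6, SciPy 1.17.1 and Matplotlib 3.10.9 were used under Python 3.11.15. Named genes are Setd2, the isoform pairs, the X-linked members, the 3 highest of each complex, members at 20 FPKM or more without a peak in a WT list, and for each comparison the 5 largest called changes per direction whose libraries did not overlap (by adjusted p alone for the difference between effects), with up to 2 called genes per list of other pathway genes. Other genes named in the text were chosen after their values were seen. The members and lists were chosen with earlier results of these data known. Alternatives were the pseudocount, filter, scaling, trend, samples in the fit, differing coordinates, replicate block, each library left out, peak score and cover rule.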

Additional observations from a re-analysis of the deposited data

Results flagged for a closer look

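The effect of Setd2KO differed between round spermatids and spermatocytes for 11 genes by a test of the difference itself (limma, adjusted p under 0.05 over all genes), given here as the log2 effect in RS minus that in PD. It was lower in RS for Atp5g2 (-1.24), Atp5g1 (-1.22), Cox6a2 (-0.997), Ndufb2 (-0.91), Ndufaf1 (-0.90), Ndufa13 (-0.85), Atp5f1 (-0.85), Cox6b2 (-0.73), Ndufaf2 (-0.66) and Ndufb7 (-0.58), and higher for Sdhc (0.66). Cox6a2 passed the filter through the RS groups alone. It had 3 and 5 reads in PD WT and 13 and 13 in PD Setd2KO, so its difference is a description whatever the setting. In the 15 alternative settings Atp5g2, Atp5g1, Cox6a2, Ndufaf1 and Ndufa13 kept their call. Cox6b2 and Ndufaf2 kept theirs in 4 of 15 and Sdhc in 7 of 15.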

How the results depend on the processing

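Of 707 alternative values for 42 named results, 676 kept direction and side of the threshold, 31 were no longer called and 0 changed direction. These named results were picked as the largest called changes of the same data, and some alternatives left out libraries that the comparison did not use. High retention was thus favoured by the choice and is no measure of how well other calls hold. Counts of called genes moved more, and brackets give the count or share over all genes in the same fit. Higher in PD Setd2KO went from 21 to 10 of 85 tested in a fit on the groups compared (2218 of 9922 genes). Lower went from 2 to 1 there (489 of 9922) and to 4 after quantile normalization (1787 of 11452). Higher in RS Setd2KO went from 11 to 24 with upper-quartile scaling (26.5%), 27 with quantile normalization (26.3%) and 18 with the groups compared (2607 of 10110). Higher in RS against PD in Setd2KO went from 4 to 8 with upper-quartile scaling (4250 of 11452) and 7 with the groups compared (3949 of 11079). The 1 gene with a higher effect in RS became 2 with a pseudocount of 0.1 FPKM (762 of 11452) and 0 with no filter (1518 of 20051). It became 4 with upper-quartile scaling (16.2%), 6 with quantile normalization (20.3%) and 0 with the replicate block (826 of 11452). An alternative chosen after seeing the data, upper-quartile scaling without the first PD WT library, gave 9 higher and 6 lower in PD Setd2KO, 30 higher in RS Setd2KO, 9 higher in RS against PD in Setd2KO, and 10 higher effects in RS. Counting 1 base under a peak as covered gave 87 and 82 genes in PD WT and RS WT.

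Leaving out each library in turn gave 4 to 55 higher and 1 to 5 lower in PD Setd2KO, 4 to 28 and 5 to 12 in RS Setd2KO, 7 to 18 and 38 to 65 for RS against PD in WT, 4 to 7 and 48 to 67 in Setd2KO, and 0 to 9 and 5 to 35 for the difference between effects. Over all genes the same fits gave, higher and lower, 18.5% to 34.9% and 3.34% to 9.11%, 11.2% to 25.9% and 14.1% to 24.1%, 33.7% to 38.2% and 43.1% to 49.99%, 31.7% to 36% and 44.2% to 50.6%, and 4.51% to 13.8% and 20.2% to 30.8%. A group left with 1 library is assumed to vary like the others. Deviations of same-numbered libraries correlated at -0.31 to 0.068 over 11452 genes. Such correlations cannot exclude a shared animal or preparation, and the labels do not say how the libraries are related. Whether the numbers pair libraries is therefore unknown. The replicate block gave 17 higher and 2 lower in PD Setd2KO and 8 and 7 in RS Setd2KO. With 2 libraries a group and 1 peak list a group, small changes were not detectable and cover has no replicate check.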
